A study of Mus musculus with 4 samples.

Results

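Genes that make, carry or break down the amino acids D-serine and glycine were followed in the cerebellum of mice with Dicer deleted in astroglia. They were 10 genes of the 28632 names on the array and were read by 19 of its 41174 probes, every non-control spot that carried one of the names being taken (the array writes Dao as Dao1). The set was chosen by function around Dao, and Dao was selected on its mutant over control ratio, whose place among the lowest of these arrays was already known. The values of the genes in the same contrast are therefore given as a description, and the adjusted p-values printed are those of the fit over all genes.

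Each of 4 two-colour Agilent arrays carried RNA from the whole cerebellum of 1 Dicer mutant (mGfap-Cre with Dicer flox/flox) and 1 control littermate (mGfap-Cre with Dicer +/flox), both at postnatal day 30 and of mixed strain background. The 4 pairs were biologically independent, per the labels. The mutant was labelled with Cy5 in pairs 1 and 3 and with Cy3 in pairs 2 and 4. Both groups carried the Cre transgene, driven by the mouse Gfap promoter and so directed to astroglia, and the controls kept 1 floxed Dicer allele, so no animal was free of Cre or of a floxed allele. Dicer1, the enzyme that cuts microRNA precursors, gave log2 ratios of mutant over control of 0.04 ± 0.22 and -0.06 ± 0.18 on its 2 probes (SD, n = 4 pairs). The place of those probes relative to the floxed part was not established, and astroglia make up only a part of the tissue, so the ratios say nothing of how far Dicer was deleted.

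D-serine and glycine are co-agonists of NMDA-type glutamate receptors, which open only when glutamate and a co-agonist are both bound. L-serine is made from a glycolytic intermediate in 3 enzyme steps, largely in astroglia, and serine racemase turns it into D-serine. In the adult cerebellum D-serine is scarce, because the peroxisomal enzyme D-amino acid oxidase, abundant in Bergmann glia and other cerebellar astroglia, destroys it. Glycine is also the transmitter of inhibitory neurons such as Golgi cells, and is removed by 2 transporters and by the mitochondrial glycine cleavage system.

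The probes on which the values turned are given as the sequence on the array, 5′ to 3′, because a probe's place decides which transcript it reads, with positions on build mm9. The Dao probe lies on chromosome 5 from 114473931 to 114474838, plus strand; its 60 bases cover 908 bases of genome, so it spans an exon junction. The Slc7a10 probe lies on chromosome 7 from 35985868 to 35985927, plus strand. The Ddo probes, which behaved differently from each other, lie on the plus strand of chromosome 10, A_51_P384936 from 40369111 to 40369170 and A_52_P448335 from 40394596 to 40394655. The last of these starts 25485 bases past A_51_P384936 and was designed on a cDNA clone, so whether it reads the RefSeq transcript of Ddo was not established. Whether the other positions are coding or untranslated was not established.
Dao A_52_P452747: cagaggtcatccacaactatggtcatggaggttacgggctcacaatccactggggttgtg
Slc7a10 A_51_P268193: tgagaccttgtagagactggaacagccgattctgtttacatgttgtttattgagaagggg
Ddo A_51_P384936: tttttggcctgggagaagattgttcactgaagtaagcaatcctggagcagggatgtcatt
Ddo A_52_P448335: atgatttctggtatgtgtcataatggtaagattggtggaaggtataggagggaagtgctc

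All 19 probes were well above background in both channels of all 4 arrays, and no spot was saturated. Per array, 26398 to 28907 probes passed that mark for the mutant and 26291 to 27718 for the control. Levels below are normalized spot intensities in arbitrary units, which can be compared between animals for 1 probe but not between probes. Ratios are log2 of mutant over control within a pair, with the SD over the 4 pairs, and the brightest probe stands for a gene. In limma's moderated test over 18025 genes, an adjusted p under 0.05 made a call. The markers of Purkinje and granule neurons were all measurable (6 of 6 in each list), which fits the tissue named in the labels.

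Of the 10 genes, 1 was called lower in the mutants, Dao, and 0 were called higher by limma. Over all tested genes 0.444% were called lower and 0.588% higher, and since the set was built on this contrast nothing is read from its count. At an unadjusted p under 0.05 stood 2 of the 10 genes, Dao and Slc7a10, and 1692 of all 18025. The ratio was below 0 in 7 of the 10 genes (49.1% of all genes), and the median of the 10 was -0.04, against 0.00 for all genes. Without Dao the median was also -0.04, with 6 of 9 below 0.

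Probe by probe, 1 of 19 was called lower (0.343% of all 25915 tested probes) and 0 higher (0.486%). The mean ratio stayed within 0.2 of 0 for 17 of the 19 probes, the exceptions being Dao and Slc7a10. The largest of the 17, Psph A_51_P430263 at -0.18, was equalled or passed in size by 12.1% of all tested genes. Most genes thus lay as near to 0, and nothing about the set is read from this count. Levels of mutants and controls did not overlap for 2 of the 19, the Dao probe and 1 of the 2 Psph probes, and the same held for 3.52% of all tested probes. In RNA from whole tissue, fewer cells of a type and less RNA per cell cannot be told apart.

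**Figure D1:**
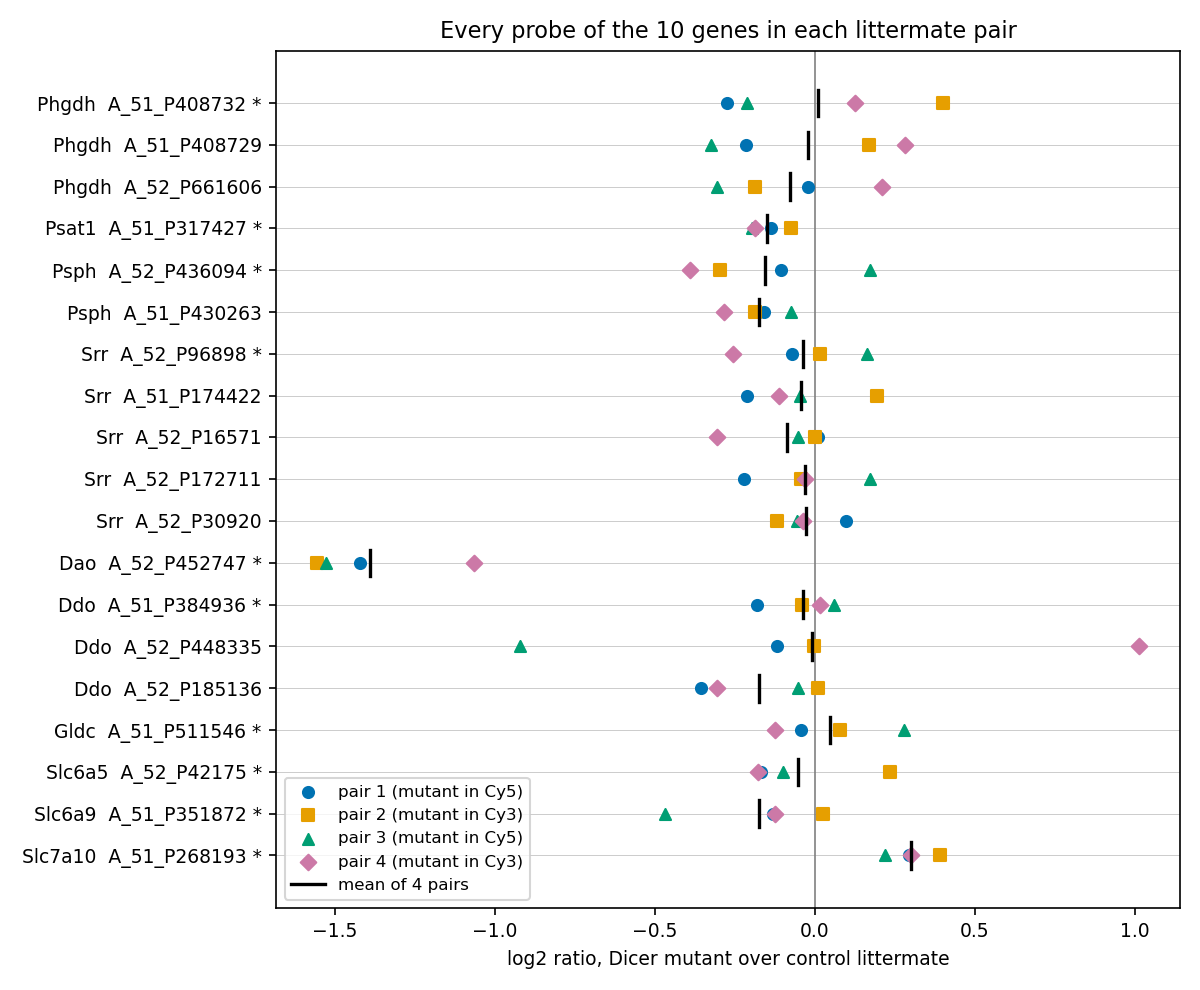
Log2 ratio of Dicer mutant over control (x axis) for each of the 19 probes (rows, ordered by the role of the gene), 1 marker per littermate pair, with the mean of 4 pairs as a black bar; an asterisk marks the probe that stands for the gene. The 4 Dao points lie between -1.55 and -1.06, the 4 Slc7a10 points between 0.22 and 0.39, and Ddo A_52_P448335 spreads from -0.92 to 1.01.

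Serine synthesis was read by 6 probes of 3 genes. Phgdh, the dehydrogenase of the first step, had 7588, 10194, 7514 and 8457 units in mutants 1 to 4 and 9177, 7728, 8703 and 7748 units in their control littermates on its brightest probe. The mutants lay below their littermates in pairs 1 and 3 and above them in pairs 2 and 4, which is also the order of the dyes. The mean ratio was -0.24 with the mutant in Cy5 and 0.26 with the mutant in Cy3, and 0.01 ± 0.31 over all pairs (adjusted p = 0.984). Its probe A_51_P408729, which shares 17 bases with the brightest one, showed the same order of signs (-0.27 and 0.22). The probe further upstream, A_52_P661606, gave -0.16 and 0.01.

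Psat1, the aminotransferase of the second step, had 4166, 4288, 3468 and 3903 units in the mutants and 4584, 4509.9, 3973 and 4446 units in the controls. Each mutant was below its own littermate, but the groups overlapped. The ratio was -0.15 ± 0.06, with a 95% interval of -0.30 to 0.00 and an adjusted p of 0.535.

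Psph, the phosphatase that releases L-serine, had 3286, 3146, 4044 and 2686 units in the mutants and 3533, 3866, 3587 and 3523 units in the controls on its brighter probe. Mutant 3 was the highest of the 8 animals and the other mutants were below every control. Its ratio was -0.16 ± 0.25 (adjusted p = 0.639). The other Psph probe shares 40 of its bases with this one and read 3198, 3101, 3306 and 2796 units in the mutants and 3572, 3528, 3478 and 3403 units in the controls. There the groups did not overlap, although the ratio was of the same size, -0.18 ± 0.09 (adjusted p = 0.527 over all probes).

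Srr, the serine racemase that makes D-serine, was read by 5 probes, none of which was called. The brightest had 2743, 2624, 3481 and 2838 units in the mutants and 2881, 2593, 3107 and 3388 units in the controls. Groups overlapped and the ratio was -0.04 ± 0.18 (adjusted p = 0.947). The means of the 5 probes ran from -0.09 to -0.03, so all 5 lay near 0. The brightest, which gives the value for the gene, and A_52_P172711 were designed on cDNA clones, and whether they read the RefSeq transcript of Srr was not established. The brightest of the 3 on a curated RefSeq transcript, A_51_P174422, gave -0.04 ± 0.17.

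Dao, the D-amino acid oxidase, was the gene of the set that differed most between the groups. It had 567, 450.4, 608 and 632 units in the mutants and 1516, 1322, 1749.7 and 1322 units in the controls. The highest mutant lay below the lowest control, and every mutant was below its own littermate. The averages were 564 ± 80.6 units in the mutants and 1477.5 ± 203 units in the controls (SD, n = 4 each). The pair ratios were -1.42, -1.55, -1.53 and -1.06, with a mean of -1.39 ± 0.23, which is 2.62-fold lower. With the mutant in Cy5 the mean was -1.47 and with the mutant in Cy3 it was -1.31, so both dye orders gave the same sign and a like size. Dao had the 6th lowest ratio of the 18025 genes, and 0.155% of them differed from 0 by at least as much; this is the value that led to the set, and it supports nothing further. The call was lost in 1 of 17 other ways of processing, in which spots with an outlier flag stayed in the background fit (-1.19, adjusted p = 0.0629); over the 17 the adjusted p of limma ran between 0.00067 and 0.0629.

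Only 1 probe reads Dao. Its next neighbour on the chromosome, Svop, a synaptic vesicle protein gene on the opposite strand, was looked up after the Dao values were seen. Its probes start 2235 and 3611 bases past the end of the Dao probe and gave 0.01 ± 0.19 and -0.07 ± 0.38.

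Ddo, the peroxisomal oxidase of D-aspartate, had 723, 738, 666 and 593 units in the mutants and 820.1, 759, 639.5 and 585 units in the controls on its brightest probe. Groups overlapped, with a ratio of -0.04 ± 0.10 (adjusted p = 0.937) and a 95% interval of -0.21 to 0.13. A dimmer probe 7891 bases before it on the chromosome, A_52_P185136, was designed on a cDNA clone and gave -0.18 ± 0.18.

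The third Ddo probe, A_52_P448335, behaved unlike the others. It had 269.5, 267, 155 and 283 units in the mutants and 293, 267, 293 and 140.4 units in the controls. Of the 8 animals 6 lay between 267 and 293 units, while mutant 3 and control 4 lay far below them. The pair ratios were -0.12, 0.00, -0.92 and 1.01, and their SD of 0.79 is reached by 0.351% of all tested probes. One low reading was in each group, in different litters, and both came from the Cy5 channel. The Cy5 readings of pairs 1 and 2 were not low (269.5 and 267 units). The mean ratio was -0.52 with the mutant in Cy5 and 0.50 with the mutant in Cy3. In pairs 3 and 4 the other Ddo probes gave ratios between -0.30 and 0.06. Whether the animal or the dye channel made these readings low was not tested.

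**Figure D2:**
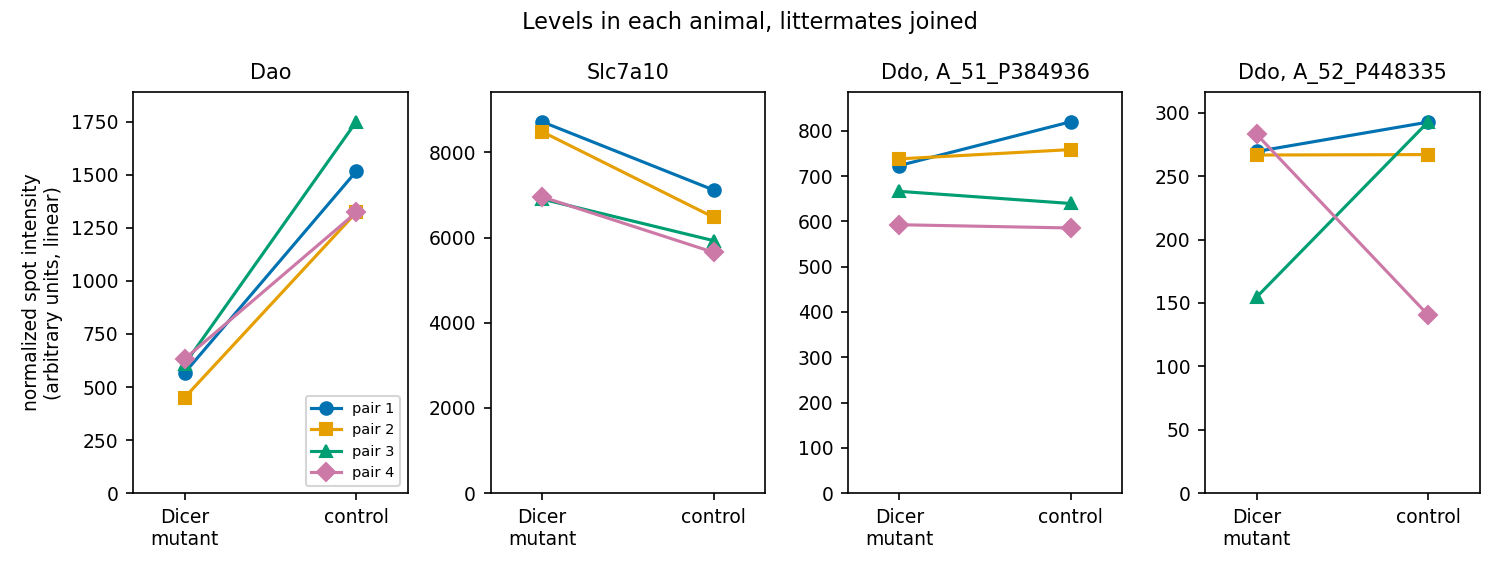
Normalized spot intensity (y axis, linear, from 0, arbitrary units) in each Dicer mutant and its control littermate, joined by a line, for Dao, Slc7a10 and 2 probes of Ddo. For Dao all 4 mutants (450.4 to 632 units) lie below all 4 controls (1322 to 1749.7 units), and for Ddo A_52_P448335 mutant 3 (155 units) and control 4 (140.4 units) lie apart from the other 6 animals.

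Gldc, the glycine decarboxylase of the glycine cleavage system, had 1855, 1837, 2059 and 1809 units in the mutants and 1911, 1739, 1696 and 1970.4 units in the controls. Groups overlapped, with mutants higher in pairs 2 and 3 and lower in the others (0.05 ± 0.18, adjusted p = 0.930).

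Of the carriers, Slc7a10, the exchanger Asc-1 that moves D-serine, glycine and other small neutral amino acids across the membrane, was the one that came nearest to a call. It had 8718, 8485, 6903 and 6955 units in the mutants and 7115, 6476, 5926 and 5652 units in the controls. Each mutant was above its own littermate, while the groups overlapped because pairs 1 and 2 read higher than pairs 3 and 4 in both genotypes. Each pair had its own array, so litter and array cannot be told apart here. The pair ratios were 0.29, 0.39, 0.22 and 0.30, with a mean of 0.30 ± 0.07 and a 95% interval of 0.15 to 0.45. The ratio was above 0 under all 17 alternatives (0.28 to 0.32). Several of them, such as the filters on dim probes, left the ratio itself unchanged. Leaving out 1 replicate could not turn its sign, because all 4 pair ratios were above 0. The adjusted p of limma, 0.138, did not pass in the main setting or in any of the 17 (0.0981 to 0.756).

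Slc6a9, the glial glycine transporter GlyT1, had 24178, 23331, 18614 and 24502 units in the mutants and 26492, 22937, 25718 and 26734 units in the controls. Mutant 3 was the lowest animal and the other 7 overlapped (-0.17 ± 0.21, adjusted p = 0.624). Slc6a5, the neuronal transporter GlyT2 that loads glycinergic terminals, had 431, 577, 405 and 406 units in the mutants and 484, 490.4, 434 and 459 units in the controls. Mutant 2 was the highest animal and the other mutants were below every control (-0.05 ± 0.19, adjusted p = 0.928).

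For the 9 genes that were not called, the 95% intervals of the fit ran from -0.37 at the lowest (Slc6a9) to 0.45 at the highest (Slc7a10). These intervals are those of the brightest probes and are not adjusted for the number of genes. That of Slc7a10, 0.15 to 0.45, lay above 0. For each gene, 4 pairs left differences within its own interval undecided. In 5 of the 10 genes (Phgdh, Psph, Srr, Gldc and Slc6a5) the mean ratio had opposite signs in the 2 dye orders. The same count was not made over all tested genes, so nothing about the set is read from it. The median SD of the 10 genes was 0.18, against 0.16 for all tested genes. On data simulated for this comparison over 17997 genes, the fit called 26% of changes of 0.5 on the log2 scale and 74% of changes of 1. The simulated noise was normal, with the residual SD of each gene in these data. Changes were put into 50 genes at each of the sizes 0.5, 1, 1.5 and 2. The shares called depend on these settings and are not the power for any of the 9 genes.

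**Figure D3:**
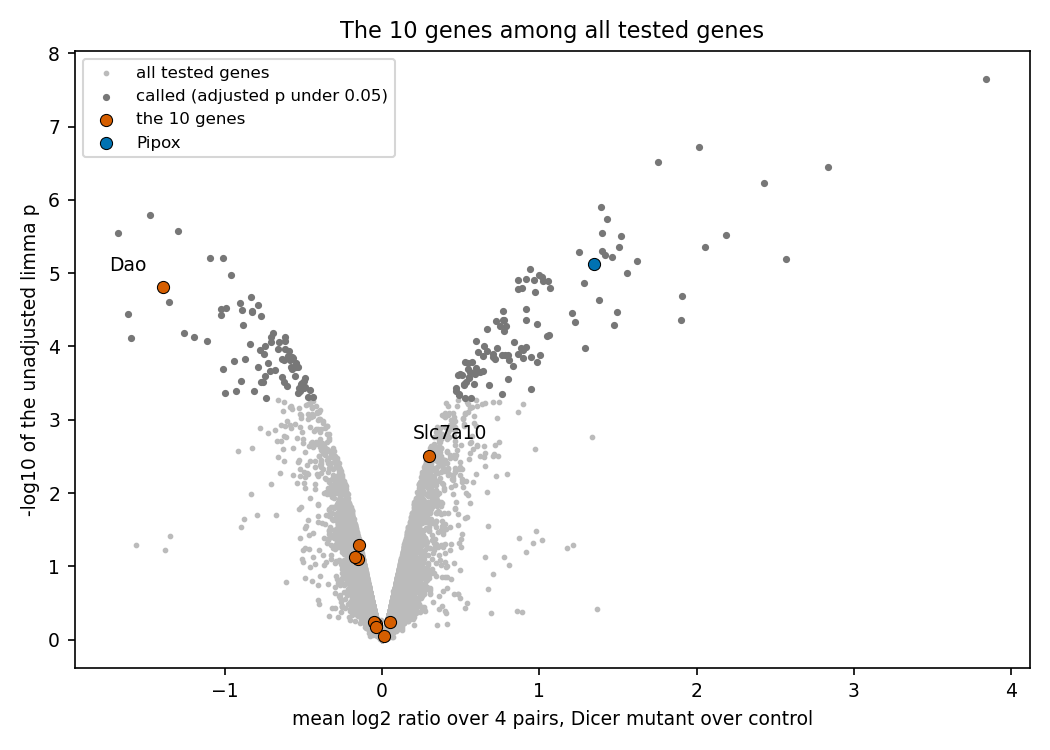
Mean log2 ratio over 4 pairs, Dicer mutant over control (x axis), against -log10 of the unadjusted limma p (y axis) for 18025 genes, with called genes in dark grey, the 10 genes in orange and Pipox in blue. Dao lies among the called genes at -1.39, Slc7a10 at 0.30 lies below the calls, and the other 8 genes lie within 0.2 of 0.

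The receptors on which D-serine and glycine act were near 0 as groups. Of 6 measured NMDA receptor subunits limma called 0 (1 at an unadjusted p under 0.05), with a median of -0.05. The obligatory subunit Grin1 stood at -0.18 ± 0.20 (adjusted p = 0.523) and Grin2b at -0.06 ± 0.10. Of 3 measured genes of glycine receptors and their anchor 0 were called (0 at an unadjusted p under 0.05). The subunit Glrb, which binds the anchor gephyrin, stood at -0.14 ± 0.14, the subunit Glra2 at -0.06 ± 0.11 and gephyrin itself (Gphn) at 0.03 ± 0.09. Glra1, Glra3 and Glra4 were not tested because their probes were too dim.

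Among enzymes that handle serine and glycine further, 1 of 11 measured genes was called, Pipox. Over all tested genes 0.444% were called lower and 0.588% higher. The list was chosen with earlier results of these data known, so nothing is read from its count. Pipox, the peroxisomal sarcosine and pipecolate oxidase, which forms glycine from sarcosine, rose by 1.35 ± 0.28 in the mutants (adjusted p = 0.00558, higher in 4 of 4 pairs). Its pair ratios were 1.33, 1.58, 0.96 and 1.52, and it was called under all 17 alternatives (1.17 to 1.51). The 17 are not separate checks. Several, such as the filters on dim probes, left the ratio of Pipox unchanged. The processed signals of the scanner software and the value table made from them gave the same ratio (1.51). The other 10 measured genes of serine and glycine breakdown were not called, 4 of the 11 being at an unadjusted p under 0.05, and the median was -0.06. Sardh, the mitochondrial sarcosine dehydrogenase with the same product, stood at -0.27 ± 0.19 (adjusted p = 0.165).

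In the glycine cleavage and serine-glycine interconversion list 0 of 4 were called (1 at an unadjusted p under 0.05), with Gcsh, the carrier protein that works with Gldc, at -0.23 ± 0.14 (adjusted p = 0.329) and the mitochondrial Shmt2 at -0.11 ± 0.26. Of 4 proteins that bind serine racemase 0 were called (0 at an unadjusted p under 0.05), with Grip1 at 0.18 ± 0.26 and Disc1 at -0.07 ± 0.05. Of 16 other carriers of small neutral amino acids 0 were called (1 at an unadjusted p under 0.05), with the mitochondrial serine carrier Sfxn1 at 0.20 ± 0.14 and the mitochondrial glycine carrier Slc25a38 at -0.18 ± 0.21.

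Dao, Ddo and Pipox are peroxisomal enzymes, and other peroxisome genes lay close to 0. Of 20 measured genes of peroxisome biogenesis and metabolism 0 were called (1 at an unadjusted p under 0.05), with a median of -0.02 and a range of -0.16 to 0.19. Ehhadh, of peroxisomal fatty acid oxidation, stood at 0.19 ± 0.08 and Crat at -0.16 ± 0.20. Phgdh, Psat1 and Psph are known targets of the stress factor ATF4; of 13 other genes of that programme, Atf4 included, 0 were called (1 at an unadjusted p under 0.05), with a median of 0.03. Aldh18a1, of proline synthesis, stood at -0.16 ± 0.12 and Mthfd2, of mitochondrial folate metabolism, at -0.07 ± 0.04.

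**Figure D4:**
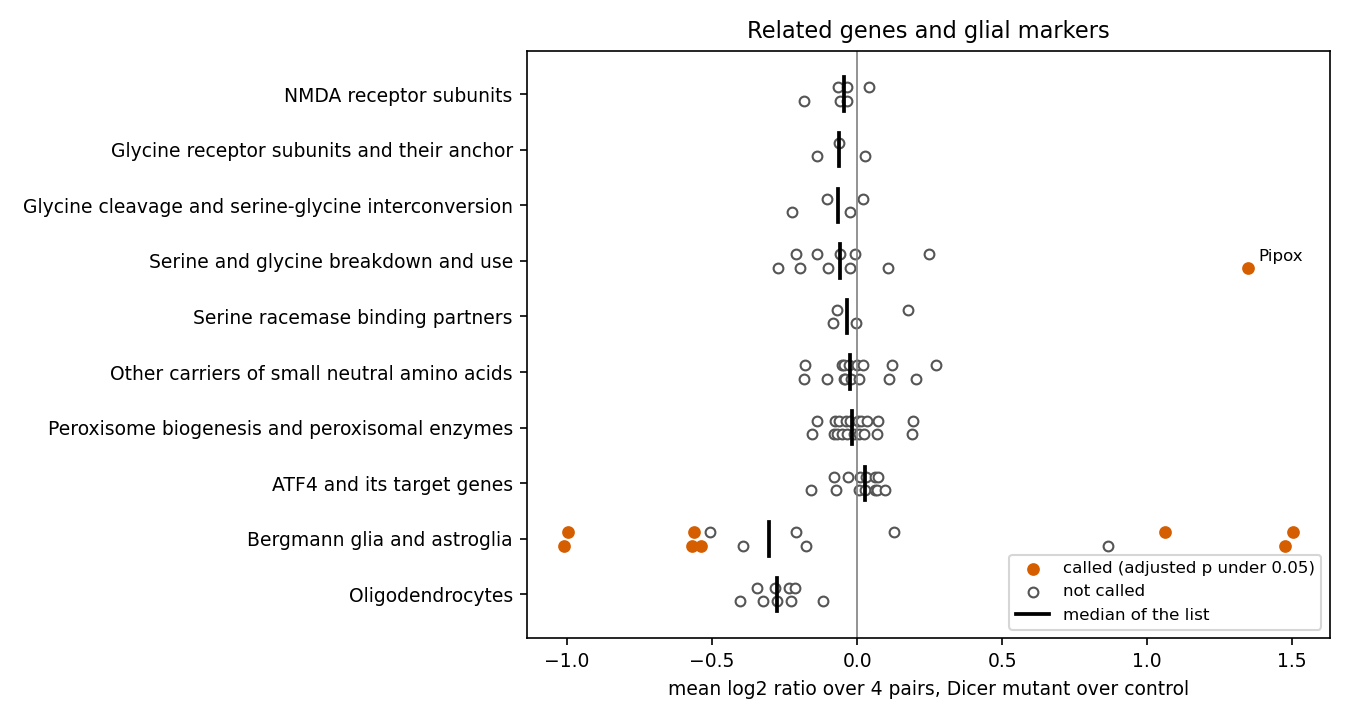
Mean log2 ratio over 4 pairs, Dicer mutant over control (x axis), for every measured gene of 8 lists related to D-serine and glycine and of 2 lists of glial markers (rows), with the median of each list as a black bar and called genes in orange. Pipox at 1.35 is the only called gene of the 8 related lists, while the astroglial markers hold called genes on both sides of 0. Over all tested genes 0.444% were called lower and 0.588% higher, and the lists were chosen with earlier results known.

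Astroglial markers moved beside Dao, in both directions. Of 14 tested markers of Bergmann glia and astroglia 5 fell and 3 rose by limma, 6 did not pass, and the median was -0.30. At an unadjusted p under 0.05 stood 12 of the 14. Ntsr2 (-1.01 ± 0.26), the tight junction protein Cldn10 (-0.997 ± 0.49), Slc1a2, which takes up glutamate (-0.57 ± 0.11), the calcium-binding S100b (-0.56 ± 0.09) and the aquaporin Aqp4 (-0.54 ± 0.26) fell. Aldh1l1 (1.504 ± 0.23), the filament protein Gfap (1.47 ± 0.35) and Fabp7 (1.06 ± 0.51) rose. The summed intensity of the 14 was 291371 to 375817 in the mutants and 334021 to 370534 in the controls, so the sums overlapped. Such a sum, here and for the lists below, is weighted to the brightest probes. In this list it also adds genes that fell to genes that rose, so it does not measure the amount of astroglia. The part of these shifts in the Dao values was not tested.

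All 9 tested oligodendrocyte markers lay below 0, with a median of -0.28 and summed intensities of 200907 to 253535 in the mutants and 241870 to 294998 in the controls, but 0 were called by limma (3 at an unadjusted p under 0.05). For Golgi cells and other inhibitory interneurons, among which Slc6a5 is expressed, 0 of 7 tested markers were called (0 at an unadjusted p under 0.05) with a median of -0.01. The list is not confined to cells that use glycine, and Grm2, also on it, was not tested. Of 12 markers of brainstem and spinal cord neurons, the other source of Slc6a5, 10 were too dim to be tested, and the summed intensity of the other 2 was 231 to 263 in the mutants and 235 to 250.3 in the controls. No marker of Purkinje neurons, granule neurons, microglia, choroid plexus or meningeal fibroblasts was called by limma (6, 6, 6, 6 and 7 tested; 0, 0, 0, 0 and 3 at an unadjusted p under 0.05). The list medians of these 5 were 0.01, -0.01, -0.04, 0.14 and 0.18. Single pairs stood apart in the last 2 lists, in genes picked out after their values were seen. The meningeal Col1a1 had 2.06 in pair 1 and 0.16 to 0.20 in the others, and Lum had 1.09 in pair 1 and 0.33 to 0.46 in the others. Dcn (0.86) and Col1a2 (0.96) were also highest in pair 1. The rest of that list was not: Igf2 had 0.17 in pair 1 and 0.38 in pair 4. Slc22a6 had 0.12 in pair 1 and 0.15 in pair 2, and Slc6a13 had 0.05 and 0.23. The choroid plexus gene Ttr had -0.94 in pair 2 and 0.29 to 0.70 in the others, and Aqp1 had -0.82 in pair 2 and 0.38 to 0.56 in the others. Without replicate 1 the fitted ratio of Dao was -1.42 and that of Slc7a10 was 0.28, and without replicate 2 they were -1.27 and 0.28. The part of these marker shifts in the other values of the 10 genes was not tested.

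The genes whose 4 pair ratios were nearest to those of Dao were found by Euclidean distance over the 4 pairs, among all tested genes outside the set. The nearest was an EST without a gene name, BI079333 (distance 0.304, mean -1.48 ± 0.20). Next came Fam107a (0.419, -1.35 ± 0.26), which encodes an actin-associated protein, and Rida (0.525, -1.29 ± 0.11), a deaminase that clears reactive imines. Lgi4, a secreted protein of glia, followed at 0.713 (-1.19 ± 0.32), and Rlbp1, which binds retinaldehyde, at 0.768 (-1.10 ± 0.09). All 5 were lower in every pair, as any gene this near to Dao must be, but the likeness did not extend to each pair. Lgi4 stood at -0.86 in pair 3, where Dao stood at -1.53, and Rlbp1 was lowest in pair 4 (-1.20), where Dao was least low (-1.06).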

How the data were processed

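Per the file headers, the deposited files hold linear spot and background intensities of both dyes, read by the authors with Agilent Feature Extraction 10.5.1.1, and probe positions on mm9. They also hold the authors' processed intensities and log10 ratios of Cy5 over Cy3; the deposited value table repeats these log10 ratios, reversed in sign for the arrays with the mutant in Cy3 (largest difference 4.84e-06, column medians 0), which makes them mutant over control. Both served as alternatives. Slide and scan were shared by all arrays, so dye was the technical factor.

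Mean spot intensities were background-corrected with normexp (offset 50) and normalized by loess within arrays in limma 3.58.1 (R 4.3.3). Spots with an outlier flag (143 to 248 per array) were left out before normexp. Of 45018 spots 43379 were not controls. Probes well above background in 1 genotype on all 4 arrays, with values on at least 3, were tested: 25915 probes and 18025 genes, 28 of which lacked 1 array. The fit on log2(Cy5/Cy3) had genotype and dye terms, 2 residual and 3.37 prior degrees of freedom, and Benjamini-Hochberg adjustment. Each array holds a littermate pair, so the fit is paired by design. Channel intensities were set to a common scale between arrays by average brightness (Aquantile). For arrays, the number of pairs limits the precision. The fit was tested on simulated data.

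The 10 genes and the gene lists were chosen with earlier results of these data known. Named were Dicer1, the 10 genes, the called genes of each related list (the 2 with the smallest p where fewer than 2 were called) and the 5 genes nearest to Dao. Svop, Gphn and the single marker genes named lie outside this rule and were chosen after their values were seen. Symbols of 24844 probes came from the reference table (GRCm38.p6), by accession. Tables and figures used Python 3.11.15, pandas 2.3.3 and matplotlib 3.10.9.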

Additional observations from a re-analysis of the deposited data

Results flagged for a closer look

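In 57 groups of 4 values (the mutants, the controls and the ratios of each of the 19 probes), 1 value standing apart from the other 3 was looked for, and chance marks about 1 group in 20. Of these groups 3 had such a value. On Ddo probe A_52_P448335 the log2 intensity of mutant 3 was 7.27, against 8.06 to 8.14 in the other mutants, and that of control 4 was 7.13, against 8.06 to 8.19 in the other controls. Both of these low readings were in the Cy5 channel. On Srr probe A_52_P172711 the log2 intensity of mutant 1 was 8.08, against 8.44 to 8.50 in the other mutants; its littermate did not stand apart, and the pair ratio was -0.22.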

How the results depend on the processing

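Dao stayed lower in the mutants under all 17 alternatives (-1.51 to -1.19) and was called in 16 of them. Several, such as the filters on dim probes and the fit with no dye term, left its ratio unchanged and altered only the adjusted p. Leaving out 1 replicate could not turn its sign, because all 4 pair ratios were below 0. With outlier flags set after normexp, 0 of the 10 genes were called lower (Dao at adjusted p = 0.0629), and 50 genes in all were called higher and 32 lower, in place of 106 and 80. BI079333, Lgi4 and Rlbp1 each lost their call in 1 setting. With the processed signals of the scanner software, or the value table made from them, 53 genes in all were called lower. Leaving out 1 replicate at a time gave 44 to 215 genes higher (44 without replicate 1, 60 without replicate 3, 215 without replicate 4) and 12 to 127 lower (12 without replicate 1, 31 without replicate 3, 127 without replicate 2, 120 without replicate 4); Dao was called in each. The cause was not tested. With no replicate block, so that littermates were not paired, 96 genes were higher and 61 lower, and Dao was again the 1 call in the set. None of the 10 genes was called higher under any alternative. The means of Ddo, Srr, Phgdh, Gldc and Slc6a5, none of them called, lay on both sides of 0 across alternatives. All 95 probe values recomputed without 1 replicate or without the filter on dim probes kept their side of the threshold. Every probe of the 10 genes passed the background mark. The normexp offset of 50 is part of each level and shrinks the ratios of dim probes, such as Srr A_52_P30920 (114 to 149 units).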
